A study of Mus musculus with 4 samples.

Results

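Immune cells from melanomas taken at day 12 were compared between mice in which miR-155 had been deleted in T cells (labelled miR-155 TCKO and written as knockout) and wild-type mice, with C57BL/6 as the strain label of both. Both groups carried subcutaneous tumours grown from 1000000 injected B16F10 cells, a mouse melanoma line, that express ovalbumin as a model antigen. The comparison rests on 2 of the 4 libraries of the series, 1 for each genotype, and each library pooled tumours from more than 4 mice. Every cell barcode with at least 200 detected genes and at most 10% of its transcripts from mitochondrial genes was kept, which left 3673 wild-type and 2036 knockout cells, 5709 of the 11224 cells in the series. The deletion is confined to T cells by design, and the labels do not give the Cre line that drives it. Live cells had been sorted as DAPI- CD45+, so the shares below are shares of leukocytes, and since the input of sorted cells was equalised they carry no information on how many leukocytes a tumour held.

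miR-155 is a short regulatory RNA cut from the transcript of its host gene, Mir155hg. It lowers the output of messenger RNAs whose 3′ untranslated region (UTR) pairs with its seed, and in activated T cells it is known to favour proliferation and effector function. CD8 T cells that recognise a tumour make interferon-gamma, which acts on macrophages and dendritic cells and switches on guanylate-binding proteins, immunity-related GTPases, chemokines and antigen-processing genes. Type I interferons work through a related complex and induce a partly different set, such as the Ifit and Oas genes.

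The mature miR-155 sequence and the sites it could pair with in 4 of its reported targets are shown because the deletion removes exactly this interaction. The first line is mmu-miR-155-5p from RefSeq (GRCm38.p6, chr16:84714143-84714165, plus strand), with the seed, bases 2 to 8, in capitals. The other lines are 21-base windows of the sense strand of 3′ UTRs in GENCODE vM21 (mm10), with the 7 bases complementary to the seed in capitals: Socs1 at chr16:10784200-10784220 (minus strand), Ets1 at chr9:32757201-32757221 (plus strand), Inpp5d at chr1:87719831-87719851 (plus strand) and Tab2 at chr10:7906685-7906705 (minus strand).
mmu-miR-155-5p: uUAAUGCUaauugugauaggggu
Socs1: gtgccgcAGCATTAagtgggg
Ets1: gttttaaAGCATTAaccttca
Inpp5d: tttaaaaAGCATTAaagaaaa
Tab2: ggtagaaAGCATTAatgaaat
Of 36 reported targets searched for AGCATTA on the sense strand of the longest annotated 3′ UTR, 22 held it at least once.

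The counts are unique molecular identifiers (UMIs), 1 for each captured RNA molecule. The wild-type library held 29662903 UMIs and the knockout library 18783490, with medians of 7392 and 7862.5 UMIs for each kept cell, and 15 barcodes occurred in both. Cells were assigned to lineages by UMIs of marker genes, for example Cd3d, Cd3e and Cd3g for T cells and Csf1r, Lyz2 and C1qa for monocytes or macrophages. In each of the 7 lineages with at least 50 cells in both libraries, every one of the 6 to 8 further markers held back as a check was at least 2-fold above its median over the other lineages. CD8 T cells and other T cells were checked with the same T cell genes, so this check does not bear on the division between them. With 1 library for each genotype there is no replicate and no test. Differences between mice, tumours and libraries cannot be told apart from the genotype, and all intervals below are exact 95% intervals that cover counting error only.

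Mir155hg, a long non-coding RNA gene at chr16:84703167-84715245 (mm10, plus strand), was examined first as a check on the labels. Wild-type T cells held 23 Mir155hg UMIs, or 7.43 counts in 1000000 UMIs (CPM; interval 4.71 to 11.2), and knockout T cells held 0, against a floor of 3 UMIs that corresponds to 2.45 CPM there. The T cells of the knockout library were thus below the wild-type level by more than counting error. The labels do not say which stretch of the gene was deleted, so how far these tags check the deletion is not known. Outside T cells the transcript was present in both libraries. Mature dendritic cells (DCs) held 20 UMIs (21.1 CPM, 12.9 to 32.6) in wild-type and 61 UMIs (41.2 CPM, 31.5 to 52.9) in knockout, and NK cells 12 and 14 UMIs. Mature DCs supplied 30.3% of the wild-type library's Mir155hg UMIs and 65.6% of the knockout library's.

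CD8 T cells and mature DCs were the lineages with at least 50 cells in both libraries whose shares differed by more than counting error between the day 12 libraries, in opposite directions. CD8 T cells made up 6.48% of wild-type cells (238 cells, interval 5.70 to 7.32%) and 2.95% of knockout cells (60 cells, 2.26 to 3.78%), a ratio of 0.455 (0.337 to 0.606). Mature DCs, the Ccr7-positive migratory state that carries antigen to lymph nodes, made up 3.24% of wild-type cells (119 cells) and 8.10% of knockout cells (165 cells), a ratio of 2.50 (1.96 to 3.19). There were 0.5 mature DCs for each CD8 T cell in wild-type and 2.75 in knockout. CD8 T cells were 40.8% of wild-type T cells and 24.2% of knockout T cells, and their ratio to Foxp3-positive regulatory T cells was 6.43 and 3.33, the latter resting on 37 and 18 regulatory cells.

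The largest populations took nearly the same share of each library. Monocytes or macrophages were 50.7% of wild-type and 48.2% of knockout cells (ratio 0.951, 0.880 to 1.03), and NK cells 11.7% and 12.7% (ratio 1.08, 0.924 to 1.27). Type 1 conventional DCs (cDC1), which cross-present antigen to CD8 T cells, were 4.03% and 3.93%, and type 2 conventional DCs (cDC2) 5.61% and 5.11%. At day 9 the same gates gave 38.4% and 9.79% CD8 T cells, 15.1% and 50.7% monocytes or macrophages, and 1.97% and 1.82% mature DCs, in wild-type and knockout respectively. The near-equal macrophage share and the unequal mature DC share were thus seen at day 12 and not at day 9, a difference between days that was not tested. Neutrophils were few, 3 wild-type and 11 knockout cells (ratio 6.61, 1.75 to 36.9).

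**Figure D1:**
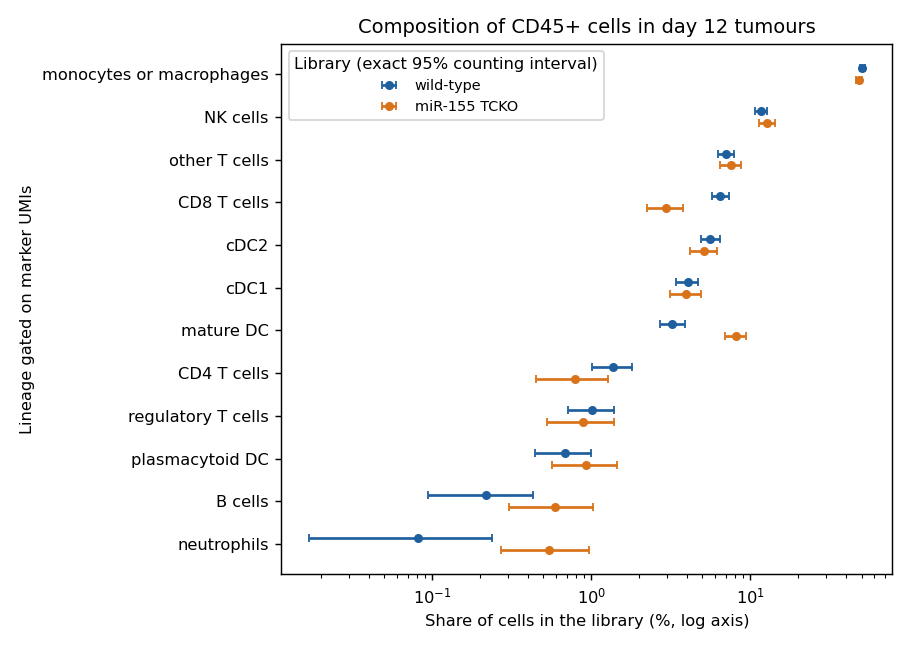
Share of each marker-gated lineage among all kept cells (percent, log axis) in the wild-type and the miR-155 TCKO library at day 12, with points for the shares and bars for exact 95% counting intervals. CD8 T cells (6.48% and 2.95%) and mature DCs (3.24% and 8.10%) are separated in opposite directions, while monocytes or macrophages and NK cells lie close together.

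Expression was compared on UMIs summed over all cells of a class and scaled to CPM. A gene entered a comparison with at least 50 UMIs over both libraries, and is called higher or lower in the knockout when the ratio was at least 1.5-fold. In the sum over all cells, fewer cells of a type and less RNA in each cell cannot be told apart. There 664 of 11063 genes were higher (6%) and 326 lower (2.95%). When each lineage's expression was weighted by its wild-type share, 488 of the 664 and 263 of the 326 were still past 1.5-fold the same way.

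Ifng, the gene for interferon-gamma (chr10:118441046-118445892, plus strand), was among the genes with the largest differences over all cells. The wild-type library held 2640 Ifng UMIs (89.1 CPM) and the knockout library 301 (16.1 CPM), a log2 ratio of -2.47. The number of cells with an Ifng UMI differed much less, at 293 of 3673 (7.98%) and 137 of 2036 (6.73%). The wild-type excess was concentrated in a few cells. A single wild-type cell held 1098 Ifng UMIs, 41.6% of the total, and the next held 415, 310 and 126, while the highest knockout cell held 38. The 10 highest cells held 82.5% of the wild-type and 37.2% of the knockout Ifng UMIs. Without the top wild-type cell the log2 ratio was -1.69, and without the 10 highest cells of each library it was -0.63, which corresponds to 15.6 and 10.1 CPM; both exclusions were chosen after seeing the data.

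The classes that held the Ifng UMIs also differed, and their shares moved when the highest cells were left out. Of the wild-type UMIs, 59.8% lay in barcodes that carried lymphoid together with myeloid, DC or B cell markers. Gated CD8 T cells held 28.1% and NK cells 7.23%. The mixed barcodes were 124 in wild-type and 62 in knockout. They include the single highest cell, which had 32160 UMIs in all, and the doublet removal tried as an alternative took out 63 of the wild-type and 20 of the knockout mixed barcodes. With doublets removed the Ifng log2 ratio over all cells was -2.44. In the knockout library 56.8% of Ifng UMIs lay in NK cells, 16.6% in the mixed barcodes and 8.64% in CD8 T cells. Without the highest cell the mixed barcodes held 31.3% and CD8 T cells 48.1% of the wild-type UMIs. Without the 10 highest cells of each library NK cells held 41.3% in wild-type and 63.5% in knockout, and CD8 T cells 24.0% and 4.23%. Within CD8 T cells Ifng was 491 CPM in wild-type and 79.0 CPM in knockout (log2 ratio -2.64), and without the highest wild-type cell, which held 415 of the 742 UMIs, the log2 ratio was -1.46. An Ifng UMI was found in 66 of 238 wild-type CD8 T cells (27.7%) and 5 of 60 knockout CD8 T cells (8.33%). Each cell was then thinned to 2000 UMIs, below which 0 kept cells lay. The shares in CD8 T cells were 13.4% (32 cells, interval 9.38 to 18.4%) and 3.33% (2 cells, 0.406 to 11.5%). These intervals overlap. Thinned monocytes or macrophages had shares of 0.376% and 0.102%. NK cells had 83.3 CPM (191 UMIs) in wild-type and 96.3 CPM (171 UMIs) in knockout, and thinned shares of 15.3% and 16.7%. Ifng per NK cell was therefore not lower in the knockout library.

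**Figure D2:**
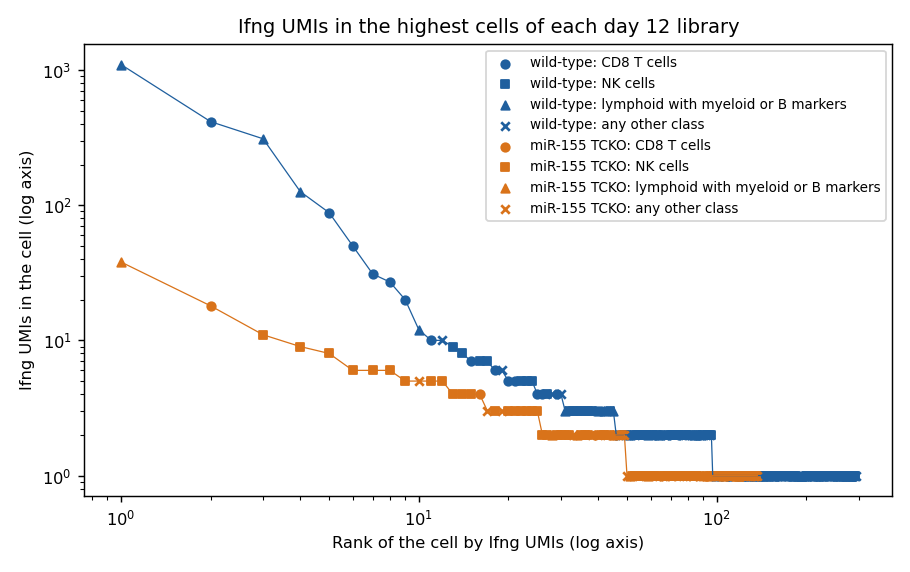
Ifng UMIs in the highest-ranked cells of the wild-type and the miR-155 TCKO library at day 12 (both axes logarithmic), with 1 point for each cell and the marker shape giving its class. The wild-type curve starts at 1098 and 415 UMIs and is made of CD8 T cells and barcodes with mixed markers at its top, whereas the knockout curve starts at 38.

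Monocytes or macrophages showed lower expression of interferon-gamma response genes in the knockout library. Of 31 measured members of the list, 28 were at least 1.5-fold lower and 0 higher, with a median log2 ratio of -0.97. Over all 9676 genes measured in these cells, 3.74% were lower and 5.35% higher, and the median was -0.01. Irf1, which encodes a transcription factor that the cytokine induces, was 199 CPM in wild-type and 119 CPM in knockout (log2 ratio -0.74). Socs1, which encodes a feedback inhibitor of the receptor's kinases, was 160 and 62.4 CPM (-1.36), and Il18bp, the secreted antagonist of interleukin-18, was 194 and 69.0 CPM (-1.50).

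Effector genes of the response followed. Gbp2b (chr3:142594847-142619179, plus strand), a guanylate-binding protein that attacks intracellular microbes, was 123 CPM in wild-type and 6.47 CPM in knockout monocytes or macrophages (log2 ratio -4.25, interval -4.63 to -3.90). The day 9 values were nearly the same, at 114 and 5.69 CPM, and the other Gbp genes measured at day 12 had log2 ratios of -1.87 (Gbp8) to -0.43 (Gbp9). It was found in 716 of 1862 wild-type cells (38.5%) and 25 of 982 knockout cells (2.55%). Thinned to equal depth the shares were 17.9% and 0.916%, beside 0 of 238 wild-type and 0 of 60 knockout CD8 T cells, which allows shares of up to 1.54% and 5.96%. Cxcl9, the chemokine that draws CXCR3-positive T cells, was 273 and 121 CPM (-1.17), with thinned shares of 15.8% and 7.03% (27.6% and 13.03% unthinned) beside 0.420% of wild-type and 0 of 60 knockout CD8 T cells. Gbp2 was 514 and 232 CPM (-1.14), and Iigp1, an immunity-related GTPase, was 173 and 52.5 CPM (-1.72). Nos2, which makes nitric oxide in activated macrophages, had 166 UMIs in 65 wild-type cells and 9 UMIs in 5 knockout cells (log2 ratio -3.50, -4.65 to -2.54). Every gene named here was lower in the knockout library by more than its counting interval. The 3 list members that did not pass 1.5-fold were Cxcl10 (616 and 486 CPM, -0.34), Gbp9 (-0.43) and Irgm1 (-0.49).

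Fcgr4, Ly6a and Ly6i transcripts were lower as well, of which Fcgr4 is a member of the interferon-gamma list and already counted there. Fcgr4, an activating receptor for IgG, was 556 and 291 CPM (log2 ratio -0.93), and after thinning 56.3% of wild-type and 31.9% of knockout monocytes or macrophages had a UMI (81.5% and 62.5% unthinned), beside 1.68% and 3.33% of thinned CD8 T cells. The complement and Fc receptor list as a whole had 2 members higher and 2 lower of 11 (median 0.06). Ly6a (Sca-1) was detected in 83.1% and 51.2% of thinned cells. Ly6i had a log2 ratio of -2.02, the uridine phosphorylase gene Upp1 one of -1.98 and the serpin gene Serpina3f one of -2.10. Xcl1, also among the 10 genes with the largest decrease, rested on 1 wild-type cell that held 80.8% of its UMIs. Among MHC class I presentation genes 11 of 20 were lower and 0 higher (median -0.63, beside 3.74% of all genes lower). This list shares Tap1, Psmb8, Psmb9 and Nlrc5 with the interferon-gamma list, so the counts of the lists are not independent. H2-Q7, a non-classical class I gene, was 320 and 157 CPM (-1.03), and the immunoproteasome subunit Psmb8 was 1662 and 1007 CPM (-0.72). The classical heavy chain gene H2-K1 (-0.48) and B2m, the shared light chain (-0.25), did not pass 1.5-fold.

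The type I interferon list did not show the same difference at day 12. Of its 26 members measured in monocytes or macrophages 0 passed 1.5-fold in either direction, and the median log2 ratio was -0.06. Isg15, a ubiquitin-like modifier, was 910 CPM in wild-type and 855 CPM in knockout (-0.09), and Ifit3 was 188 and 177 CPM (-0.09). Set side by side, at day 9 the interferon-gamma list had 22 of 31 members lower (median -0.92) and the type I list 25 of 26 lower (median -1.34) in the same cells, where 9.73% of all genes were lower and 11% higher at day 9. Both lists were thus lower at day 9, and at day 12 the interferon-gamma list. The change between days has no replicate and was not tested. Markers of NK cells summed to 151 CPM in wild-type and 86.9 CPM in knockout monocytes or macrophages and T cell markers to 15.7 and 10.3 CPM. Their part in the result was not tested.

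Letters of the binding motifs for the 2 interferon pathways are shown for genes on both sides of this contrast. The windows come from RefSeq promoters (GRCm38.p6, 250 bases before to 50 after the gene start), read on the strand of the gene, with the motif in capitals. TTCNNNGAA is the gamma-activated sequence (GAS), its own reverse complement, and GAAANNGAAA, searched on both strands, is the core of the interferon-stimulated response element (ISRE). Irf1 holds a GAS at chr11:53769916-53769940 (plus strand). Igtp, an immunity-related GTPase gene that was lower in knockout macrophages (log2 ratio -1.10), holds a GAS at chr11:58199503-58199527 and an ISRE at chr11:58199514-58199539 (plus strand), windows that overlap. Gbp2 holds an ISRE on the opposite strand at chr3:142620596-142620621 (plus strand), and so does Ifit3 at chr19:34583365-34583390 (plus strand).
Irf1 GAS: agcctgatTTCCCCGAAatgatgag
Igtp GAS: ctagccatTTCTAGGAActgaaact
Igtp ISRE: taggaactGAAACTGAAAgctgttcg
Gbp2 ISRE: tcttttagTTTCACTTTCactgtctt
Ifit3 ISRE: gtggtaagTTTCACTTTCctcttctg
Of all 27025 promoters, 9.55% held the GAS letters and 3.99% the ISRE letters. Only 20 of the 31 interferon-gamma genes and 20 of the 26 type I genes had a promoter in the table, under the 80% needed for a share, so a comparison of the lists by motif is void. The letters are a description of these windows and not evidence that a factor binds there.

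**Figure D3:**
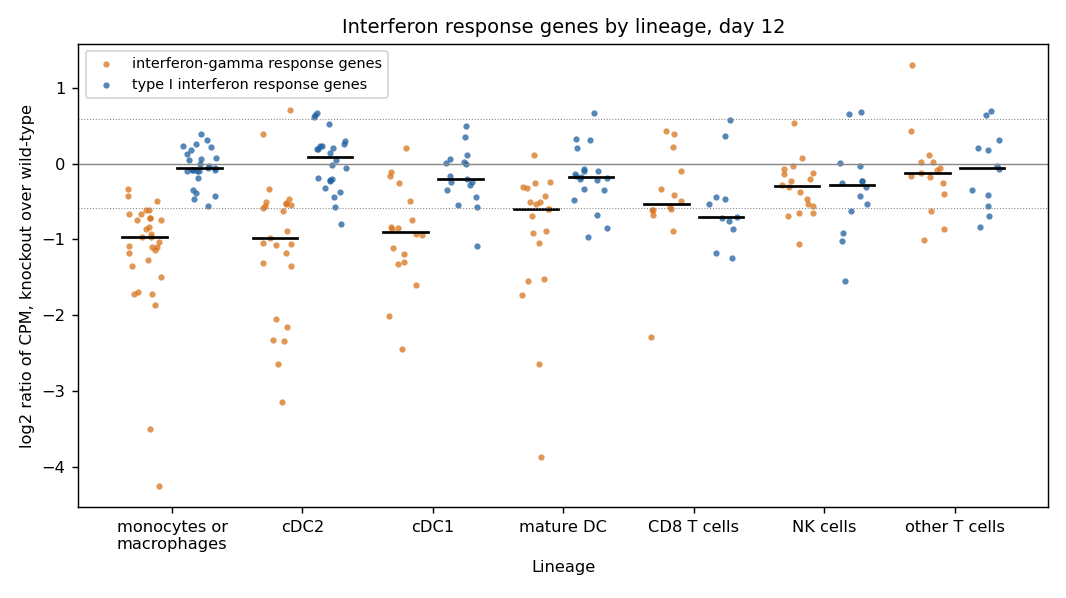
log2 ratio of CPM, knockout over wild-type, for members of the interferon-gamma list and the type I list in 7 lineages at day 12, with 1 point for each gene, black bars for medians and dotted lines at 1.5-fold. The interferon-gamma medians lie near -1 in monocytes or macrophages (-0.97), cDC2 (-0.99) and cDC1 (-0.90), and the type I median in monocytes or macrophages is -0.06.

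The same response genes were lower in the DC subsets, to a degree that differed little between cDC2 and macrophages. In cDC2, 16 of 25 interferon-gamma genes were lower and 1 higher (median log2 ratio -0.99), where 6.91% of all 5062 genes were lower and 5.51% higher (median -0.03). Gbp2 was 399 CPM in wild-type and 96.7 CPM in knockout cDC2 (-2.04) and Gbp4 82.6 and 9.39 CPM (-3.14). The single member that was higher was Cd274, which encodes the checkpoint ligand PD-L1, at 22.5 and 36.6 CPM (0.70). In cDC1, 13 of 18 were lower and 0 higher (median -0.90), where 6.95% of 4806 genes were lower and 4.1% higher (median -0.04). Gbp2 was 146 and 26.9 CPM (-2.44), Cxcl9 226 and 104 CPM (-1.12) and Irf1 106 and 46.6 CPM (-1.19) in cDC1. In mature DCs, 11 of 20 were lower and 0 higher (median -0.60), where 7.82% of 3786 genes were lower and 6.1% higher (median -0.02). Cxcl9 was 297 and 89.2 CPM (-1.73) and Iigp1 59.1 and 4.05 CPM (-3.87) in mature DCs, with Iigp1 UMIs in 25 of 119 and 4 of 165 cells. A lower response was thus recorded in each of the 4 myeloid classes with at least 50 cells in both libraries.

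Lymphocytes showed the response genes at smaller differences. In NK cells 4 of 18 interferon-gamma genes were lower and 0 higher (median log2 ratio -0.30), where 3.27% of 5941 genes were lower and 4.28% higher (median 0.00). In CD8 T cells 6 of 14 were lower and 0 higher (median -0.53), with 805 of all 3673 genes lower (21.9%) and 284 higher (7.73%), a split that TMM scaling made 551 and 461, and a median of -0.18 over all genes. The type I list in cDC2 had 3 members higher and 1 lower of 24 (median 0.09), and in cDC1 0 higher and 1 lower of 17 (median -0.20). In CD8 T cells 6 of its 11 members were lower (median -0.71), among them Irf7 (96.7 and 42.5 CPM, -1.19), the factor that amplifies type I interferon, so the gap between the lists seen in macrophages was not seen there.

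Genes of other macrophage programmes were higher in the knockout library. Among alternatively activated genes, which interleukin-4 and wound signals induce, 13 of 20 were higher and 0 lower in monocytes or macrophages (median log2 ratio 0.93). Over all genes measured in these cells 5.35% were higher and 3.74% lower. Arg1 (chr10:24915221-24927484, minus strand), the enzyme that depletes arginine, was 175 CPM in wild-type and 338 CPM in knockout (0.95), with thinned shares of 7.41% and 14.7% (12.5% and 24.2% unthinned) beside 0.420% and 1.67% of CD8 T cells. Mrc1, the mannose receptor, was 204 and 332 CPM (0.71), and Ccl24, an eosinophil-attracting chemokine, 79.7 and 250.3 CPM (1.65). Retnla was 953 and 1867 CPM (0.97), with thinned shares of 12.4% and 19.1% beside 4.62% and 13.3% of CD8 T cells (unthinned 25.4% and 38.9%, beside 12.2% and 26.7%). The part of RNA from outside the macrophages in the Retnla values was not tested. For Retnla the day 9 values ran the other way, at 344 CPM in wild-type and 4.19 CPM in knockout, while Arg1 at day 9 was 18.4 and 197 CPM. The inflammatory macrophage list, which includes Nos2, was not lower as a whole in the sum over all cells at day 12. There 7 of its 20 members were higher and 1 lower (median 0.32), and of 21 chemokine genes 8 were higher and 1 lower (median 0.37). Of all genes in that sum 6% were higher and 2.95% lower.

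Resident-type macrophage genes, which mark long-lived perivascular and tissue macrophages, were higher in 12 of 16 cases and lower in 0 (median log2 ratio 1.07). Of all genes measured in monocytes or macrophages at day 12, 5.35% were higher and 3.74% lower. The resident-type list shares Mrc1, Cd163 and Stab1 with the alternatively activated list. Lyve1, a hyaluronan receptor, was 25.01 CPM in wild-type and 65.4 CPM in knockout (1.39), the folate receptor gene Folr2 117 and 229 CPM (0.97) and the chemokine gene Pf4 294 and 755 CPM (1.36). Cd163, the haemoglobin scavenger receptor, was 3.60 and 15.4 CPM (2.10). Fcna, the lectin ficolin A, was 7.69 and 32.6 CPM (2.09) with UMIs in 50 and 68 cells. The lectin genes Cd209f and Cd209g had log2 ratios of 2.24 and 2.66, and these rested on 14 and 24 cells for Cd209f and on 7 and 16 cells for Cd209g. At day 9 Lyve1 was 0 and 0.879 CPM and Folr2 7.30 and 6.21 CPM, while Pf4 was 4.996 and 192 CPM. The list then had 4 of 12 members higher and 1 lower (median -0.05), where 11% of all genes were higher and 9.73% lower at day 9, and the change between days was not tested.

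Lipid and lysosome genes, which mark foamy TREM2-positive macrophages, were higher in 12 of 23 cases and lower in 0 (median log2 ratio 0.74). The share of all genes higher in monocytes or macrophages was 5.35%. Apoe, the cholesterol carrier, was 1405 CPM in wild-type and 3010 CPM in knockout (1.10), Fabp5, a fatty-acid carrier, 311 and 730 CPM (1.23) and the protease gene Ctsl 211 and 423 CPM (1.00). Trem2 itself was 98.8 and 172 CPM (0.80). The sterol carrier Npc2 was nearly equal at 1737 and 1700.5 CPM (-0.03). Transcripts of melanoma cells, which macrophages can take up or which can be free in the droplets, summed over 8 markers to 46.7 CPM in wild-type and 77.8 CPM in knockout monocytes or macrophages. This list includes Gpnmb, a lipid-list member, and its part in the result was not tested.

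**Figure D4:**
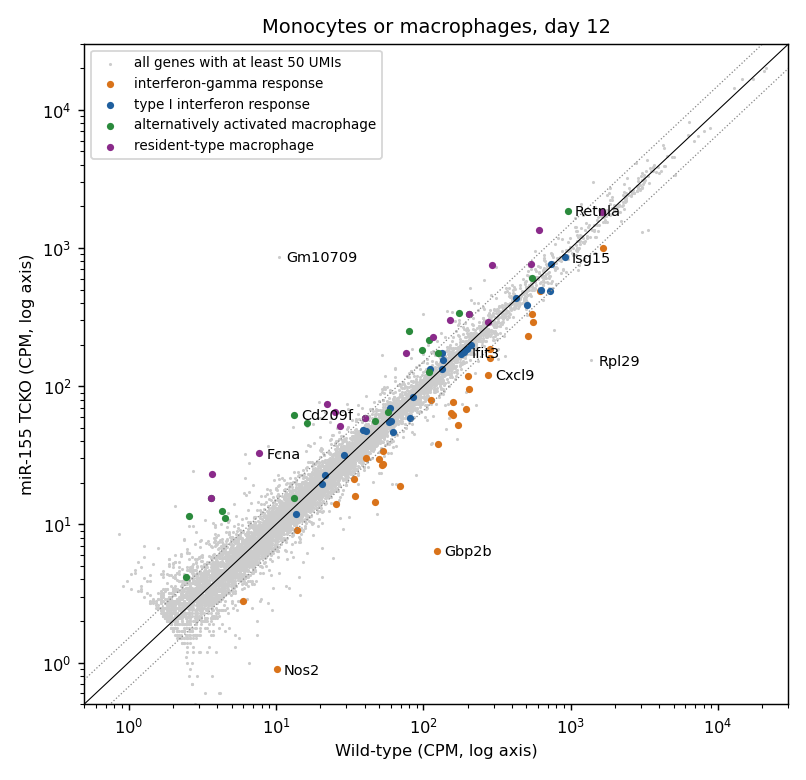
CPM in knockout against wild-type monocytes or macrophages at day 12 (log axes), with 1 point for each gene, members of 4 lists in colour, the solid line at equality and dotted lines at 1.5-fold. Interferon-gamma genes lie below the line, with Gbp2b (123 and 6.47 CPM, log2 ratio -4.25) much further from it than the list median of -0.97. Most alternatively activated and resident-type genes, such as Fcna (7.69 and 32.6 CPM), lie above the line, and type I genes along it.

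Monocytes or macrophages were then divided by complement C1q, a product of mature tissue macrophages. A cell was C1q-high with at least 10 C1qa, C1qb and C1qc UMIs in 10000. This divides a continuous range, and 122 wild-type and 72 knockout cells lay within 2-fold of the limit. C1q-high cells were 1045 of 1862 (56.1%) in wild-type and 465 of 982 (47.4%) in knockout, with median depths of 9083 and 11339 UMIs. C1q-low cells had median depths of 7843 and 7917 UMIs. The interferon-gamma list was lower on both sides, in 27 of 31 C1q-high cases (median log2 ratio -0.97, beside 4.45% of 8885 genes lower) and 25 of 31 C1q-low cases (median -1.03, beside 5.4% of 8044 genes lower). The resident-type list was higher in 14 of 16 C1q-high cases (median 1.22, beside 5.79% of genes higher) and 5 of 11 C1q-low cases (median 0.54, beside 4.56%). Ly6c2, the marker of inflammatory monocytes, had medians of 15.4 and 2.79 UMIs in 10000 in wild-type and knockout C1q-high cells, and 23.4 and 7.94 in C1q-low cells. Medians of Plac8 were 42.9 and 22.1 in C1q-high and 63.3 and 39.6 in C1q-low cells, and those of Apoe 4.31 and 17.4, and 2.02 and 6.17. The Ms4a7 median was 0 throughout. Wild-type C1q-high cells thus had more Ly6c2 and Plac8 and less Apoe than knockout C1q-low cells. The same side of the limit need not hold the same kind of cell in both libraries.

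Cell cycle genes moved in opposite directions on the 2 sides. Over all monocytes or macrophages 4 of 31 were higher and 0 lower (median log2 ratio 0.21, beside 5.35% of all genes higher). In C1q-high cells 15 of 29 were higher in the knockout and 0 lower (median 0.61), and in C1q-low cells 0 of 28 were higher and 15 lower (median -0.63). Of all genes at day 12, 5.79% were higher in C1q-high cells and 5.4% lower in C1q-low cells. Top2a, the mitotic topoisomerase, was 17.9 CPM in wild-type and 35.7 CPM in knockout C1q-high cells (1.00), and 28.6 and 18.1 CPM in C1q-low cells (-0.66). Cdc20, an activator of mitotic exit, was 3.47 and 10.5 CPM in C1q-high cells (1.60) and 6.97 and 1.77 CPM in C1q-low cells (-1.98). Mki67 was 10.6 and 20.8 CPM in C1q-high cells (0.97) and 12.3 and 9.49 CPM in C1q-low cells (-0.37, interval -0.94 to 0.18). An Mki67 UMI was found in 4.46% of 1862 wild-type and 4.28% of 982 knockout monocytes or macrophages. The values on each side of the limit thus rest on few cells. The replication licensing gene Mcm5 had a log2 ratio of -0.26 (-0.68 to 0.15) in C1q-high cells and -1.07 in C1q-low cells. Top2a was thus higher in C1q-low than in C1q-high cells of the wild-type library and the other way round in the knockout library. At day 9 the list had 10 of 19 members higher in C1q-high cells (median 0.63) and 8 of 20 lower and 3 higher in C1q-low cells (median -0.37). Over all genes at day 9, 15.4% were higher in C1q-high cells, and 8.75% were lower and 9.72% higher in C1q-low cells.

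The CD8 T cells of knockout tumours carried few proliferation transcripts. Of 28 cell cycle genes 26 were lower and 0 higher, with a median log2 ratio of -2.73. Of these 6 had no UMI in the knockout, and with those set to the bound that 3 UMIs allow the median was -2.50. Over all 3673 genes 21.9% were lower in these cells and the median was -0.18, and scaling by TMM or by the median of ratios would move every value up by 0.17 or 0.18. Mki67 had 118 UMIs (78.1 CPM) in wild-type and 3 UMIs (9.11 CPM) in knockout CD8 T cells, a log2 ratio of -3.10 with a wide interval (-5.40 to -1.52). Top2a was 166 and 24.3 CPM (-2.77) and the microtubule regulator Stmn1 504 and 75.9 CPM (-2.73). Cdc20, with 84 UMIs and none, was at least 6.10-fold lower against the floor of 3 UMIs in the class, and its exact interval allows a ratio of up to 0.206. The knockout values rest on 60 cells with 329290 UMIs in all, against 238 cells with 1510317 UMIs in the wild-type.

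Effector genes were lower in knockout CD8 T cells with exceptions. Of 18 cytotoxic and effector genes 11 were lower and 1 higher (median log2 ratio -0.99). Over all genes in these cells 21.9% were lower and 7.73% higher. Gzmb, the granzyme of activated killers, was 1631 CPM in wild-type and 401 CPM in knockout (-2.02), and the granule protein gene Nkg7 3330 and 1585 CPM (-1.07). Gzmk (chr13:113171608-113225908, minus strand), a granzyme of memory-type effectors, had 433 UMIs in 93 of 238 wild-type cells and 2 UMIs in 1 of 60 knockout cells, a ratio of 0.0212 (0.00256 to 0.0770). The chemokine genes Ccl4 (1781 and 134 CPM, -3.74) and Ccl3 (1143 and 170 CPM, -2.75) were lower too. For Ccl4 1 wild-type cell held 26.8% of the UMIs, and for Ccl3 1 knockout cell held 94.6%. Gzma was 444 and 544 CPM (0.29), and Klrd1, which encodes the CD94 chain of NK-type receptors, was 420 and 738 CPM (0.81). Markers of NK cells summed to 934 CPM in wild-type and 1443 CPM in knockout CD8 T cells, and their part in the Gzma and Klrd1 values was not tested.

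Inhibitory receptors, which accumulate on T cells under chronic antigen, were lower in 5 of 10 cases and higher in 0 (median log2 ratio -0.66). Over all genes in CD8 T cells 21.9% were lower. Pdcd1, the PD-1 gene, was 230 CPM in wild-type and 54.7 CPM in knockout CD8 T cells (-2.07), and Tox, the exhaustion factor, 92.7 and 21.3 CPM (-2.12). Lag3 was 166 and 115 CPM (-0.52). Naive and memory genes were higher in 12 of 15 cases and lower in 0 (median 1.37, beside 7.73% of all genes higher). The transcription factor genes Lef1 and Tcf7 were 43.7 and 194 CPM (2.15) and 87.4 and 264 CPM (1.60). The lymph-node homing receptor gene Ccr7 was 49.0 and 203 CPM (2.05). Klf2, which sustains quiescence and recirculation, was 489 and 1266 CPM (1.37). Dapl1, a marker of naive CD8 T cells, was found in 18.9% and 36.7% of cells, 13.03% and 31.7% after thinning, beside 0.107% and 0.102% of monocytes or macrophages. Stress and dissociation genes were higher in 8 of 14 cases and lower in 2 (median 0.81), with Jun at 55.0 and 210 CPM (1.93). Their part in the other differences was not tested.

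Reported miR-155 targets were followed in CD8 T cells, where the deletion is placed by design. They were higher in 4 of 13 cases and lower in 1, with a median log2 ratio of 0.53. Over all 3673 genes in these cells 7.73% were higher and 21.9% lower. Ets1, a transcription factor whose seed site is shown above, was 151 CPM in wild-type and 228 CPM in knockout (0.59, 0.20 to 0.98). Socs1, the cytokine feedback inhibitor, was 78.8 and 103 CPM (0.39, -0.20 to 0.95). The phosphatase gene Inpp5d was 35.8 and 39.5 CPM (0.14, -0.86 to 1.04), and the kinase adaptor Tab2 37.7 and 54.7 CPM (0.53, -0.32 to 1.32). For 3 of these 4 targets the interval includes no change. The AP-1 gene Fos was 92.0 and 237 CPM (1.36), and its 3′ UTR held no AGCATTA. The 7 measured targets with a site had a median log2 ratio of 0.40 and the 6 without one 0.53, so the seed match did not separate them at this depth. Ets1 is also on the naive list and Fos on the stress list.

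**Figure D5:**
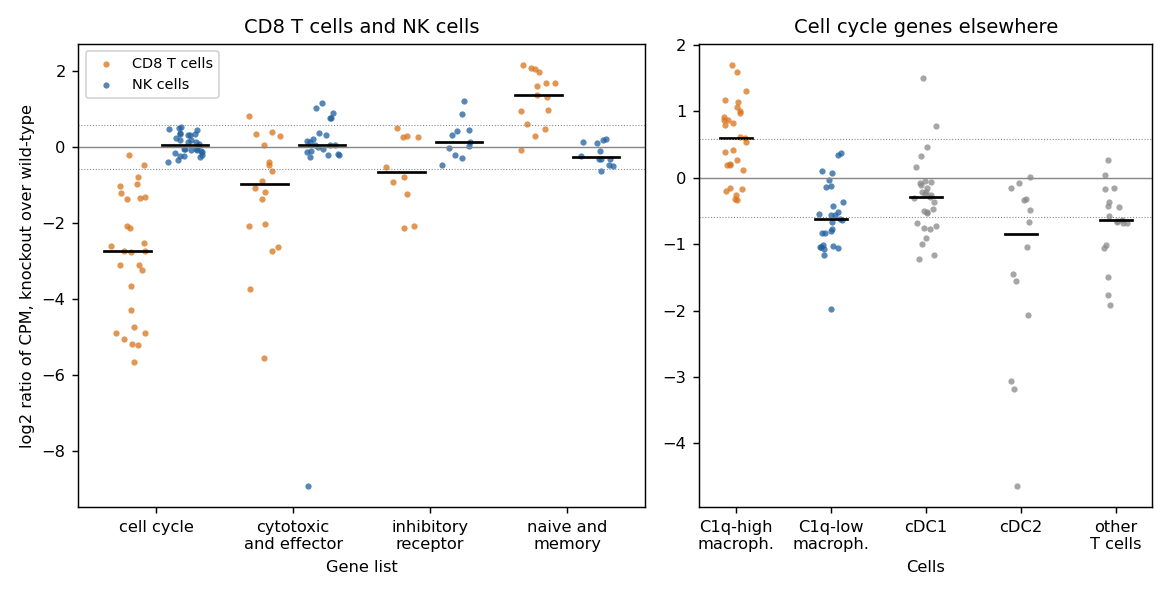
log2 ratio of CPM, knockout over wild-type, at day 12 for 4 lists in CD8 T cells and NK cells (left) and for cell cycle genes in macrophages divided by C1q, cDC1, cDC2 and other T cells (right), with 1 point for each gene, black bars for medians and dotted lines at 1.5-fold. Genes without a UMI in 1 library are drawn with 0.5 UMIs added. CD8 T cell medians run from -2.73 for cell cycle genes to 1.37 for naive and memory genes, while the cell cycle medians of macrophages are 0.61 in C1q-high and -0.63 in C1q-low cells.

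NK cells showed no cell cycle gene past 1.5-fold, and a few cytotoxic genes were higher. Of 30 cell cycle genes 0 passed 1.5-fold in either direction (median log2 ratio 0.05), and of 22 cytotoxic genes 5 were higher and 1 lower (median 0.05), where 4.28% of all genes were higher. Prf1, the pore-forming perforin, was 99.1 CPM in wild-type and 185 CPM in knockout (0.90), Ccl3 131 and 268 CPM (1.03) and Ccl4 400.0 and 679 CPM (0.76). Gzmb was 2184 and 2368 CPM (0.12) and Gzma 6397 and 5317 CPM (-0.27). Gzmc, a granzyme of highly activated killers, was 1708 and 3829 CPM (1.16), with UMIs in 24.7% and 39.5% of NK cells, and in 17.4% and 30.2% after thinning beside 0.698% and 2.04% of thinned monocytes or macrophages. The member that was lower, Gzmg, had 315 UMIs in 4 of 430 wild-type cells, 70.2% of them in 1 cell, and none in the knockout. That is at least 81.4-fold lower against the floor of 3 UMIs, with an exact interval that allows a ratio of up to 0.0152, on the evidence of 4 cells. The type I gene Isg15 was 102 and 54.1 CPM (-0.91) and Ifit3 21.4 and 7.32 CPM (-1.55) in NK cells, where 3.27% of all genes were lower. Both were named for being among the 10 genes with the largest decrease there, so they do not stand for the type I list. Ifit3 rested on 49 and 13 UMIs in 27 and 12 cells. Spp1, encoding osteopontin, was 501 and 1258 CPM (1.33) in 68 and 81 NK cells.

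Mature DCs, besides being more frequent, differed in what they expressed. Of 27 genes of the mature DC programme 5 were higher and 0 lower within these cells (median log2 ratio 0.28, beside 6.1% of all genes higher). In the sum over all cells 21 of 30 were higher (median 0.80), and this median was 0.28 at the wild-type lineage mix. Ccl17 and Ccl22, chemokines for CCR4-positive T cells, were 573 and 1518 CPM (1.41) and 1681 and 2878 CPM (0.78). Il12b, a subunit of interleukin-12, was 160 and 268 CPM (0.74), and the costimulatory ligand gene Cd80 107 and 176 CPM (0.73). MHC class II presentation genes were lower in 8 of 11 cases and higher in 0 (median -0.64, beside 7.82% of all genes lower). H2-Ab1, a class II chain, was 3865 and 2227 CPM (-0.80). H2-DMa and H2-DMb1, which load peptide onto class II, were 528 and 195 CPM (-1.44) and 185 and 60.8 CPM (-1.60). Cd74, the invariant chain, was 13799 and 11136 CPM (-0.31). In monocytes or macrophages the same list had 1 member higher and 1 lower of 12, and in mature DCs at day 9 it had 4 of 11 higher and 0 lower (median 0.40), where 12.2% of all genes were higher and 13.9% lower. Markers of cDC1 summed to 1662 and 935 CPM and those of monocytes or macrophages to 803 and 537 CPM in mature DCs. The doublet removal took out 9 of the 119 wild-type and 1 of the 165 knockout mature DCs. With doublets removed the class II median was -0.62, and the part of the markers in it was not tested.

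Il1b, the interleukin-1 beta gene, was higher in both conventional DC subsets of the knockout library. It was 31.1 CPM in wild-type and 250.1 CPM in knockout cDC1 (3.01), with UMIs in 24 of 148 and 28 of 80 cells, and 56.3 and 204 CPM in cDC2 (1.85). The fatty-acid carrier gene Fabp5 was 105 and 465 CPM in cDC2 (2.15), though 1 knockout cell held 37.8% of its UMIs. Plet1, which encodes a surface protein, was 79.0 and 343 CPM in cDC1 (2.12). Ly6a was 526 and 77.1 CPM in cDC1 (-2.77), with UMIs in 81.1% and 43.8% of cells and in 39.9% and 10% after thinning. The mitotic genes Birc5 (62.9 and 7.51 CPM, -3.07) and Ccnb2 (50 UMIs and 1 UMI, -4.64, -9.98 to -2.10) were lower in knockout cDC2. Birc5 UMIs lay in 21 wild-type and 6 knockout cDC2, and Ccnb2 UMIs in 12 cells and 1 cell. The cell cycle list in cDC2 had 8 of 14 members lower and 0 higher (median -0.85, beside 6.91% of all genes lower). An Mki67 UMI was found in 6.31% of wild-type and 1.92% of knockout cDC2. After thinning these shares were 2.43% (5 cells) and 1.92% (2 cells), and their intervals overlap.

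T cells outside the CD8, CD4 and Foxp3 gates were 258 wild-type and 154 knockout cells. Of 18 cell cycle genes 10 were lower in the knockout and 0 higher (median log2 ratio -0.64, beside 4.59% of 3663 genes lower and 6.61% higher). Of 8 MHC class II genes 7 were lower (median -1.33), but 1 wild-type barcode held 40.9% of the H2-Aa UMIs, and at day 9 all 10 were higher, where 5.5% of all genes were higher. Markers of cDC2 summed to 1138 CPM in wild-type and 410 CPM in knockout cells of this class, and their part in the class II values was not tested.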

How the data were processed

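The authors sorted the cells, made droplet 3′ libraries and deposited UMI counts as a gene-by-barcode matrix for each library, made with Cell Ranger 2.0.2 on mm10 per the submitters' processing notes. Lineage gates on summed UMIs of marker genes were set after the files were seen (T cells 3, NK cells 2, cDC1 2, cDC2 4, mature DCs 5, monocytes or macrophages 10 UMIs). Lymphoid barcodes with 20 or more myeloid UMIs, or 8 or more mature DC UMIs, formed the mixed class. It also took lymphoid barcodes that reached the gate of cDC1, cDC2, plasmacytoid DCs (3 UMIs) or B cells (5 UMIs). The members of the comparison and the 23 gene lists (428 of 434 genes present) were chosen with earlier results of these data known. UMIs were summed per class and scaled to CPM, with exact conditional intervals for ratios (SciPy 1.17.1). Genes were named when the bound of the interval nearest to no change was among the 10 highest or lowest in all cells, monocytes or macrophages, CD8 T cells and NK cells (5 elsewhere), or as examples of a list. Gate genes were not reported within their own lineage. No doublets were removed in the values reported, and Scrublet's own threshold marked 1 wild-type and 12 knockout cells. Alternatives used edgeR 4.0.16 (TMM) and DESeq2 1.42.0 (size factors) on the deposited counts. The intervals were run on simulated class sums drawn with the same counting error that they assume. Those sums hold no single cells. The run therefore cannot show how the intervals fare where few cells hold most UMIs of a gene.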

Additional observations from a re-analysis of the deposited data

How the results depend on the processing

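No paired analysis was possible because each group has 1 library. Across the alternatives run, 46 of 48 values for share ratios, 284 of 306 for list medians and 1530 of 1619 for single genes moved by less than their counting error or spread, and 0 reversed. With cells thinned to 2000 UMIs the share ratio was 0.313 for CD8 T cells and 0.687 for cDC1. Counts of genes called depended on the minimum and the fold. With no minimum and 0.5 UMIs added, 3096 were higher and 1689 lower in all cells, 2778 and 1738 in monocytes or macrophages, 3839 and 2736 in CD8 T cells, and 2131 and 1927 in NK cells. At a fold of 2 these counts were 231 and 101, 151 and 106, 85 and 328, and 42 and 26. With a minimum of 20 UMIs, 491 were lower in all cells, 822 higher in monocytes or macrophages, 760 higher and 1573 lower in CD8 T cells, and 598 higher and 547 lower in NK cells. In CD8 T cells TMM gave 461 higher and 551 lower and median-of-ratios scaling 463 higher and 547 lower, in place of 284 and 805. With the mean over cells, 382 genes were higher in NK cells.

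Medians that moved stayed on the same side of 0. The interferon-gamma median over all cells was -0.83 with no minimum and -0.86 as a mean over cells, and the mature DC programme over all cells was 0.28 at the wild-type lineage mix. Resident-type genes in monocytes or macrophages were 1.08 under both scalings, 0.98 with a minimum of 20 UMIs or none, 1.06 without doublets, 1.01 without shared barcodes, 1.09 with gates 1 UMI higher and 0.85 as a mean over cells, and 1.27 in C1q-high cells at a mitochondrial limit of 5%. As a mean over cells the medians were 0.85 for alternatively activated and 0.63 for lipid genes in monocytes or macrophages, 1.06 for naive and memory genes in CD8 T cells (1.55 with median-of-ratios scaling), -0.40 for cell cycle and -0.55 for MHC class II genes in other T cells (-1.64 with gates 1 UMI higher), and 0.14 for cytotoxic genes in NK cells (0.14 with gates 1 UMI higher). Stress genes in CD8 T cells were 0.24 with a minimum of 20 UMIs. Counting CD8 cells with myeloid or B markers, an alternative chosen after seeing the data, gave a share ratio of 0.504. The causes were not tested. Depth limits the CD8 comparison, whose knockout side holds 60 cells.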

Other observations

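A few genes differed in the same direction in all 7 lineages, and they were picked out after their values were seen. Among 4593 genes with at least 20 UMIs in each lineage, 2 were at least 2-fold higher in every lineage and 2 at least 2-fold lower. Gm10709, annotated as a processed pseudogene at chr9:7751725-7752204 (plus strand), was 12.1 CPM in wild-type and 973 CPM in knockout over all cells, with log2 ratios of 5.78 to 7.05 between lineages. Rpl29, a ribosomal protein gene at chr9:106429454-106431568 (plus strand), was 1651 and 168 CPM, with log2 ratios of -3.47 to -3.17. Wdfy1 at chr1:79702262-79776143 (minus strand) was 48.6 and 10.9 CPM (-2.74 to -1.96), and the heat shock gene Hspa1a 82.5 and 266 CPM (1.15 to 4.13). The day 9 libraries gave 26.0 and 888 CPM for Gm10709, 2052 and 130.2 CPM for Rpl29 and 42.2 and 7.65 CPM for Wdfy1. Hspa1a at day 9 was higher in the knockout over all cells (75.1 and 151 CPM). It was lower then in CD8 T cells (43.3 and 19.5 CPM), NK cells (32.8 and 8.45 CPM) and cDC1 (114 and 81.4 CPM). Counts of genes with near-identical copies, such as a ribosomal protein gene and a processed pseudogene, are uncertain. Genetic differences between the mouse lines cannot be told apart from the deletion in these libraries. The same limit applies to Gbp2b, whose values in monocytes or macrophages were close between the days within each genotype.

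Single barcodes account for some large ratios: 1 knockout barcode held 99.1% of the Hba-a1 UMIs and another all 85 Ccl1 UMIs in T cells outside the CD8, CD4 and Foxp3 gates, and in CD8 T cells 1 knockout barcode held 98.2% of the S100a8 and 95.9% of the Pf4 UMIs.

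Rare signals over all cells included Il13, a type 2 cytokine gene, with 53 UMIs in 10 wild-type cells and none in the knockout, and Ubd, with 58 UMIs in 17 wild-type cells and none. Against the floor of 3 UMIs in the library these are at least 11.2-fold and 12.2-fold lower, and the exact intervals allow ratios of up to 0.114 and 0.104. S100a8, a neutrophil alarmin, was 5.54 CPM in wild-type and 60.9 CPM in knockout, beside 3 and 11 gated neutrophils.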
